A study of Mus musculus with 6 samples.

Results

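The miRNAs miR-451a, miR-144-5p, miR-144-3p and miR-486a-5p, which are abundant in red blood cells and their precursors, were followed in left ventricle tissue of mice that received sunitinib, an inhibitor of receptor tyrosine kinases used against cancer. They were taken by name (mmu-miR-451a, mmu-miR-144-5p, mmu-miR-144-3p and mmu-miR-486a-5p) and are 4 of the 1881 mouse miRNAs on the array. None of the 4 differed between sunitinib and control past the threshold of an adjusted p of 0.05, and the groups overlapped for each of them. The 3 products of the miR-144/451a cluster were spread widely over the control samples, whereas miR-486a-5p was not. The 3 products lay in the same control order, which some miRNAs outside the cluster also showed.

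The samples were left ventricles of male C57BL/6 mice, 3 from a vehicle group (named control in the sample titles) and 3 from a sunitinib group, with no transgene or other treatment named. The labels used here give no dose, duration or age. Whether the samples are separate animals is not stated, so a p-value here reflects sample-to-sample spread that could be partly technical. From each sample, 200 ng of total RNA was labelled with Cy3 and hybridised alone to an Agilent mouse miRNA array.

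MicroRNAs are short RNAs that guide Argonaute proteins to messenger RNAs and repress them through pairing of the seed, bases 2 to 8 of the miRNA. The hairpins of miR-144 and miR-451a lie side by side in 1 cluster, which the transcription factor GATA1 switches on as red cells mature. The hairpin of miR-451a is too short for Dicer and is cut by Argonaute 2, while miR-144 is made by Dicer and leaves a 5p and a 3p strand. The hairpin of miR-486a lies in an intron of the ankyrin gene Ank1, and miR-486a-5p is known from muscle as well as from red cells. Ventricle tissue holds blood in its vessels, and the labels say that it was rinsed with saline.

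The mature sequences from RefSeq (GRCm38.p6, plus strand) are shown because they set what each array probe can read. The capitals mark the seed.
miR-451a: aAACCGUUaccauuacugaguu
miR-144-5p: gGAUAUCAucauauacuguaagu
miR-144-3p: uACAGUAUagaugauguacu
Each of these seeds was shared with 0 other mouse miRNAs of the RefSeq table. Bases 2 to 7 of miR-144-3p also occur at that place in miR-101a-3p. The table has no entry for miR-486a-5p.

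The hairpins of the cluster are shown with the mature miRNAs in capitals, since the results below set products of the same stretch of RNA against each other.
Mir451a: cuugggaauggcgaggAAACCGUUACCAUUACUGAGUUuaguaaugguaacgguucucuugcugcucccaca
Mir144: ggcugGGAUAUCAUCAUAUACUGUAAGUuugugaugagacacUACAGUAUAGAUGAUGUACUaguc
In its hairpin of 72 bases, miR-451a takes up bases 17 to 38. In the miR-144 hairpin of 66 bases, miR-144-5p takes up bases 6 to 28 and miR-144-3p bases 43 to 62. A stretch of 99 bases separates the hairpins. By the RefSeq gene table, Mir451a shares its interval with Mir451b on the opposite strand, and Mir486 lies within Ank1 and holds Mir3107, the gene of miR-486b.

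The array reads each of the 4 miRNAs with a pair of probes, each printed in 15 spots. The longer probe of each pair carries 1 more base, in capitals here.
miR-451a probe: aactcagtaatggtaacggttT
miR-144-5p probe: acttacagtatatgatgatatcC
miR-144-3p probe: agtacatcatctatactgtA
miR-486a-5p probe: ctcggggcagctcA
For the first 3, the longer probe is complementary to the whole mature miRNA and the shorter one starts at base 2 of it. In the mm9 coordinates of the files, the longer probes lie at chr11:77886689-77886709 for miR-451a, chr11:77886513-77886534 for miR-144-5p, chr11:77886550-77886568 for miR-144-3p and chr8:24253067-24253080 for miR-486a-5p. On chromosome 11 these intervals are 1 base shorter than the probes. The files list 4 mappings for the miR-486a-5p probe, of which only the first is given here, and 1 for each of the other longer probes. The files also list miR-486b-5p under its old name on the miR-486a-5p probes, so the signal of the 2 copies cannot be separated.

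Signals are given as log2 of the scaled spot intensity, with the brighter probe standing for its miRNA, and a difference is sunitinib minus control. A miRNA was tested by limma where that probe was well above background, by the scanner software's own criterion, on all 3 arrays of at least 1 group. This left 237 miRNAs, over which p-values were adjusted by Benjamini-Hochberg. All 4 miRNAs were well above background on 6 of 6 arrays, so none of them entered the test through 1 group alone. Levels are not set against each other between miRNAs, because probes differ in how brightly they bind.

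The arrays were alike in the spot measures that follow. Between 10.94% and 11.98% of spots were well above background and between 2.79% and 3.06% were set aside as uneven or outlying. No spot was saturated. Over all tested miRNAs, the SD of the log2 differences between control replicates 1 and 3 was 0.177. It was larger for the pairs with control replicate 2, at 0.346 with replicate 1 and 0.394 with replicate 3. The pairs of sunitinib arrays had 0.262 to 0.410, and the pairs of a control with a sunitinib array 0.327 to 0.477. All 6 arrays lie on 1 slide, with the controls and sunitinib replicate 3 in row 2 and sunitinib replicates 1 and 2 in row 1.

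The spread of miR-451a, the cluster member that supports late red cell maturation, differed most between the groups among the 4. Its signal was 12.07, 11.43 and 11.81 in control replicates 1 to 3. In sunitinib replicates 1 to 3 it was 11.93, 11.97 and 11.97. Control replicate 1 was the highest and control replicate 2 the lowest of the 6 arrays, and the sunitinib values lay between them. The group means were 11.77 ± 0.32 (SD, n = 3) in control and 11.96 ± 0.024 (SD, n = 3) in sunitinib. The difference of 0.19 (SE 0.16, 95% interval -0.20 to 0.57), a 1.14-fold higher mean, was not past the threshold (limma, adjusted p = 0.598). On the linear scale that interval runs from 0.873-fold to 1.48-fold, so larger changes of the mean lie outside it. In bulk tissue, a change in the number of cells of a type and a change in RNA per cell cannot be told apart.

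The controls alone spanned 1.56-fold in miR-451a, against 1.03-fold in the sunitinib samples. Ranked by SD among the 237 miRNAs, miR-451a was 7th in control and 230th in sunitinib. The median SD of all tested miRNAs was 0.0783 in control and 0.127 in sunitinib, so most miRNAs had the smaller spread in the group where miR-451a had the larger. Differences in spread were not tested.

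For miR-144-5p, the strand on the 5′ side of the miR-144 hairpin, the signal was 4.42, 3.72 and 4.03 in control replicates 1 to 3. It was 4.35, 4.23 and 4.55 in sunitinib replicates 1 to 3. Sunitinib replicate 3 was the highest array, and control replicate 1 lay above the other 2 sunitinib arrays, so the groups overlapped. The means were 4.06 ± 0.35 (SD, n = 3) in control and 4.38 ± 0.16 (SD, n = 3) in sunitinib. This difference of 0.32 (SE 0.19, 95% interval -0.13 to 0.77), or 1.25-fold, was the largest of the 4 in size and was not past the threshold (limma, adjusted p = 0.407). The control samples spanned 1.63-fold, 6th by SD of 237.

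The other strand, miR-144-3p, gave 5.40, 4.91 and 5.29 in control replicates 1 to 3. The sunitinib replicates 1 to 3 gave 4.997, 5.12 and 5.18. All sunitinib values fell inside the range of the controls. The means were 5.20 ± 0.26 (SD, n = 3) in control and 5.10 ± 0.093 (SD, n = 3) in sunitinib. Their difference was -0.10 (SE 0.14, 95% interval -0.43 to 0.23; limma, adjusted p = 0.733). The controls spanned 1.41-fold, 11th by SD of 237.

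Unlike the cluster, miR-486a-5p had a spread near that of a typical miRNA in control. Its signal was 9.27, 9.34 and 9.44 on the control arrays 1 to 3, beside 9.13, 9.45 and 9.33 on the sunitinib arrays 1 to 3. Sunitinib held both the highest and the lowest array. The means were 9.35 ± 0.084 (SD, n = 3) and 9.30 ± 0.16 (SD, n = 3), a difference of -0.05 (SE 0.10, 95% interval -0.29 to 0.19; limma, adjusted p = 0.830). By SD it ranked 112th of 237 in control and 83rd in sunitinib.

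**Figure D1:**
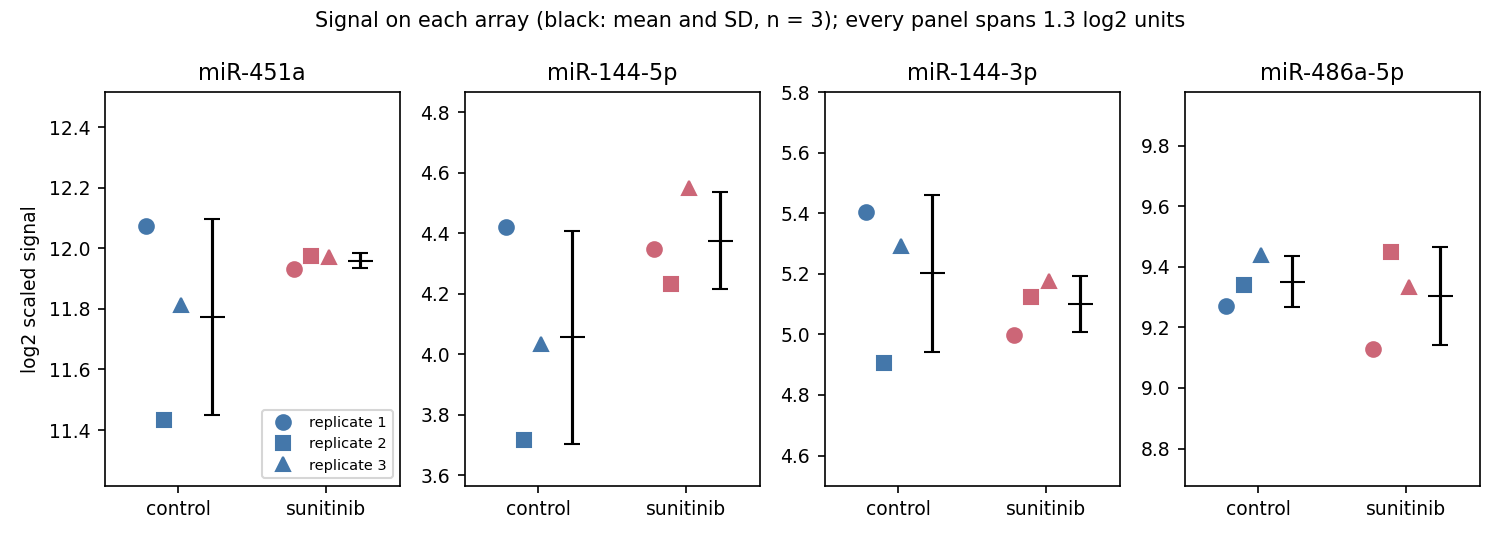
Log2 scaled signal of each miRNA (y axis; every panel spans the same number of log2 units) in the 3 control and 3 sunitinib samples; symbols mark the replicate and black bars the mean and SD. The control values of miR-451a run from 11.43 to 12.07 around the closely spaced sunitinib values, and the groups overlap in all 4 panels.

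Among all 237 tested miRNAs, 8 were past the threshold (3.38%), 4 higher and 4 lower (1.69% each), and the groups did not overlap for 65 (27.4%). At an unadjusted p under 0.05 there were 45 (19%). Of the 4 erythroid miRNAs, 0 were past it and 0 had groups that did not overlap (limma, unadjusted p from 0.134 to 0.651). Their median change was 0.07, beside 0.02 over all tested miRNAs.

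Row 2 of the slide holds all 3 controls and sunitinib replicate 3, so it gives a comparison within 1 row, with a single sunitinib sample whose spread is taken from the controls. There the difference was 0.20 in miR-451a and 0.49 in miR-144-5p, while miR-144-3p and miR-486a-5p both came to -0.02 (limma, adjusted p from 0.477 to 0.958). A fit with the row as a term has to give the same differences, since row 1 holds sunitinib arrays only (limma, adjusted p from 0.707 to 0.976). It is therefore no second check.

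The paired probes of each miRNA differed in the same direction. For miR-451a, the longer probe differed by 0.19 (SE 0.16) and the shorter by 0.17 (SE 0.15). The corresponding differences of miR-144-3p were -0.10 (SE 0.14) and -0.18 (SE 0.13). Those of miR-486a-5p were -0.05 (SE 0.10) and -0.11 (SE 0.10). For miR-144-5p only the longer probe met the background criterion, on 6 of 6 arrays, with a difference of 0.32 (SE 0.18). The shorter probe of miR-144-5p, which lacks the base that pairs with base 1 of the miRNA, met it on 0 of 6, so its difference of 0.22 was not tested.

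Of 419 probes tested, 15 passed the threshold (3.58%), and 0 of the 7 tested probes of these miRNAs did (limma per probe, adjusted p from 0.432 to 0.828). The CV between spots of a probe on 1 array ran from 3.04% to 6.81% for miR-451a and from 2.07% to 7.51% for miR-486a-5p. It was larger for miR-144-3p, at 5.32% to 22.7%, and for the longer probe of miR-144-5p, at 11.3% to 25.2%. The values of miR-144 thus carry more spot error than those of the other 2, although each is a mean over 14 or 15 spots.

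**Figure D2:**
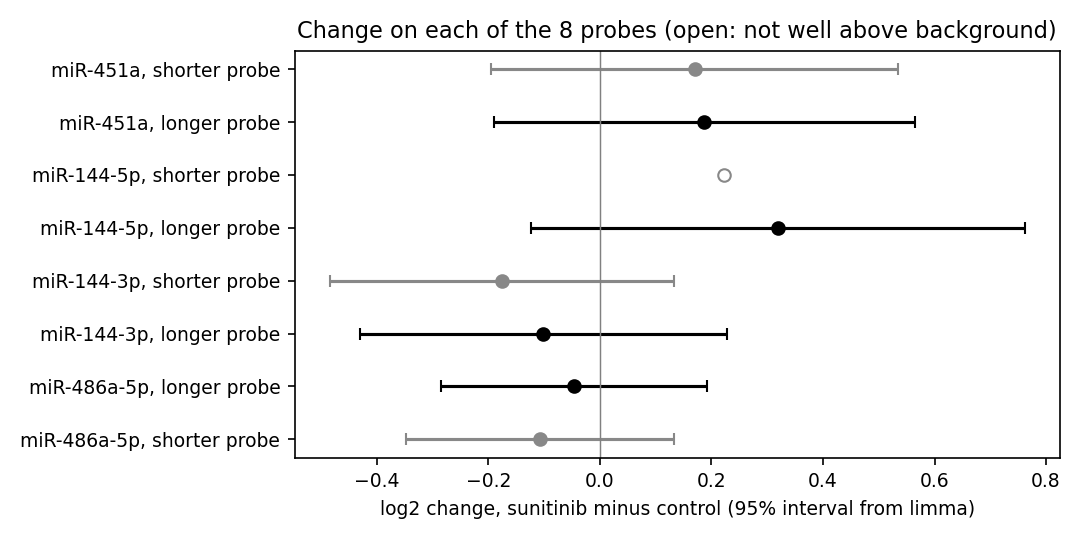
Log2 change, sunitinib minus control (x axis), on each of the 8 probes (y axis), with the 95% interval from limma; black marks the brighter, longer probe and the open circle the miR-144-5p probe not well above background. Every interval includes 0, and the 2 probes of each miRNA lie on the same side of 0.

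The authors' deposited table, log2 values of the same arrays after processing that is not given in the sources used here, showed the same control order for the cluster. In it the controls 1 to 3 had miR-451a at 11.80, 11.14 and 11.50, and the sunitinib samples 1 to 3 had it at 11.58, 11.57 and 11.64. The sunitinib values there were again closely spaced and lay within the control range. On these values miR-451a differed by 0.12 and miR-144-5p by 0.25, with -0.08 in miR-144-3p and -0.10 in miR-486a-5p (limma, adjusted p from 0.361 to 0.775). The scale and centring of that table are unknown, and its columns had medians from 2.195 to 2.200.

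In control, miR-451a, miR-144-5p and miR-144-3p were each highest in replicate 1, lower in replicate 3 and lowest in replicate 2. The array with little miR-451a was thus also the one with little of both miR-144 strands. That control order also occurred outside the cluster, for example in miR-106b-5p and miR-150-5p, and its share over all tested miRNAs was not counted. For miR-486a-5p the order was replicate 3, replicate 2, replicate 1. The sunitinib samples showed no such shared order, since miR-451a was nearly level in them, miR-144-5p was highest in replicate 3 and lowest in replicate 2, and miR-144-3p was lowest in replicate 1.

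**Figure D3:**
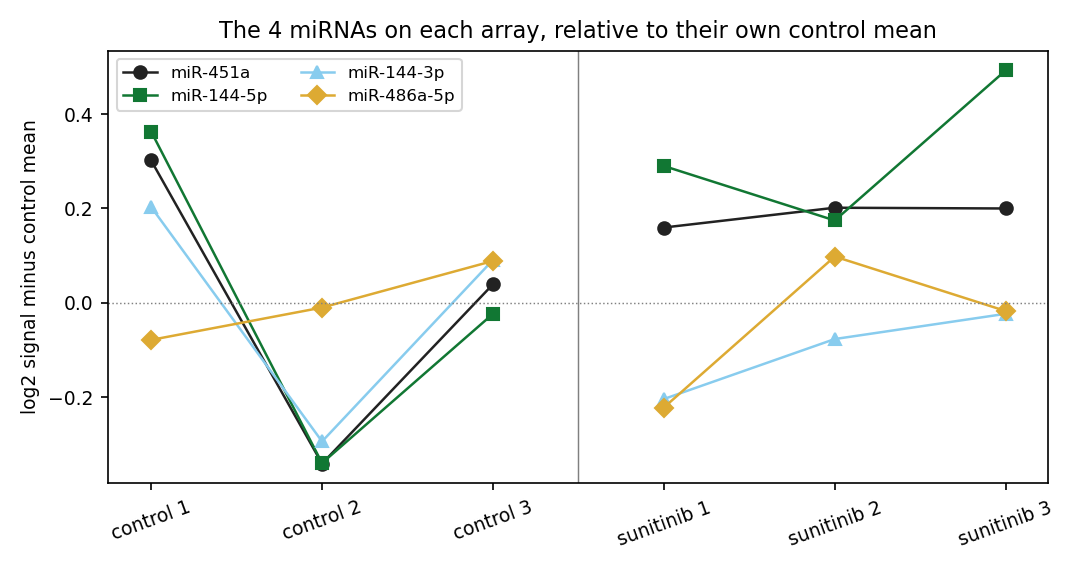
Log2 signal of each miRNA minus its own control mean (y axis) on each of the 6 arrays (x axis); lines join arrays of a group only to guide the eye, since replicates have no order. In control, the 3 cluster products lie together on every array and miR-486a-5p goes its own way; in sunitinib, miR-144-3p lies below miR-451a and miR-144-5p.

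Over the 6 arrays, miR-451a and miR-144-5p had a Pearson r of 0.914 (exact permutation p = 0.0139, 0.0833 after adjustment over the 6 pairs). Spearman's rho was 0.714 (exact permutation p = 0.136). Without control replicates 2 and 3, the arrays farthest from the median of miR-451a, r fell to 0.195, so the relation rests on those arrays. For miR-451a and miR-144-3p, r was 0.670 (exact permutation p = 0.150, adjusted 0.450) and rho 0.600 (exact permutation p = 0.242). Without the same arrays that r was 0.983. For miR-144-5p and miR-144-3p, r was 0.492 (exact permutation p = 0.324, adjusted 0.647) and rho 0.486 (exact permutation p = 0.356), with r at -0.04 when control replicate 2 and sunitinib replicate 3 were left out. None of these relations passed 0.05 after adjustment.

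Removing each group's mean leaves only the spread between samples of a group. There r was 0.899 for miR-451a and miR-144-5p, 0.944 for miR-451a and miR-144-3p and 0.861 for the strands of miR-144. Within the 3 controls alone, r was 0.987, 0.980 and 0.935 in that order. Within the 3 sunitinib samples alone it was 0.124, 0.948 and 0.434. With group means removed, miR-486a-5p had r of -0.08 with miR-451a, -0.27 with miR-144-5p and 0.19 with miR-144-3p. These are descriptions over 6 arrays that share a slide and a scaling, and for the cluster the spread is wider in the controls. Over the arrays as measured, the pairs with miR-486a-5p had r of -0.17, -0.34 and 0.24 in the same order, and rho of -0.14, -0.54 and -0.03 (exact permutation p from 0.524 to 0.731 for r and from 0.297 to 1 for rho, adjusted 0.731 for r and from 0.533 to 1 for rho). Leaving out the 2 farthest arrays gave 0.19, -0.71 and 0.80, so the sign turned for the pair with miR-451a.

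Likeness over the 6 arrays, by Pearson's r and with no test, placed miR-144-5p first among the 236 other tested miRNAs for miR-451a, and miR-451a first for miR-144-5p. The next for miR-451a were miR-466f-3p (r = 0.789) and miR-296-5p (r = 0.730). For miR-144-5p the next were miR-25-3p (r = 0.811) and miR-106b-5p (r = 0.781), which come from a shared cluster of their own. The 3 most like miR-144-3p were miR-378c (r = 0.840), miR-5107-5p (r = 0.699) and miR-466f-3p (r = 0.698), with miR-451a 5th. Those most like miR-486a-5p were miR-709 (r = 0.979), miR-181b-5p (r = 0.966) and miR-7047-5p (r = 0.960), with no member of the cluster nearer than 111th. With group means removed, miR-451a was first for both miR-144-5p and miR-144-3p.

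Whether products of a shared transcript differ in their change was asked within arrays, as the log2 difference of 2 miRNAs on the same array, in which an array's scaling factor cancels. The values below are relative to the control mean of that difference. For miR-144-5p minus miR-144-3p they were 0.16, -0.05 and -0.11 on control arrays 1 to 3, and 0.49, 0.25 and 0.52 on sunitinib arrays 1 to 3. All sunitinib arrays lay above all controls, and the mean gap was 0.42 (exact two-sided permutation p = 0.1, the smallest that 3 against 3 can give, and 0.300 after adjustment over the 6 pairs). For miR-451a minus miR-144-3p the values were 0.10, -0.05 and -0.05 in control and 0.36, 0.28 and 0.22 in sunitinib, again without overlap. The gap was 0.29 (exact two-sided permutation p = 0.1, adjusted 0.300). With the only sunitinib array of row 2, these gaps were 0.52 and 0.22. The gap between the strands of miR-144 was smaller with normexp background correction (0.12) and on the software's summed signal (0.10). The sum named miR-144-5p includes the signal of miR-144-3p, which narrows the gap between them. The gap of miR-451a minus miR-144-3p was 0.11 with quantile normalization.

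The other 4 pairs overlapped. The gap was -0.13 for miR-451a minus miR-144-5p (exact two-sided permutation p = 0.300, adjusted 0.450) and 0.23 for miR-451a minus miR-486a-5p (exact two-sided permutation p = 0.400, adjusted 0.480). For miR-144-5p minus miR-486a-5p it was 0.37 (exact two-sided permutation p = 0.200, adjusted 0.400). For miR-144-3p minus miR-486a-5p it was -0.05 (exact two-sided permutation p = 0.900, adjusted 0.900). Without control replicate 2 the gap to miR-486a-5p was 0.07 for miR-451a and 0.20 for miR-144-5p, and without control replicate 1 it was 0.42 and 0.59. The permutation test could not give a p under 0.05 for any of the 6 pairs.

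Groups did not overlap in 2 of these 6 pairs, beside 27.3% of all 27966 pairs of tested miRNAs. Over the 20 hairpins with both strands tested, they did not overlap in 9 (45%). The gap between the strands of miR-144 was the 3rd largest of the 20, after miR-3102 (0.71) and miR-139 (0.46), against a median size of 0.163. For miR-486a the gap between strands was -0.16, also without overlap, with miR-486a-3p at a change of 0.12 (SE 0.09; limma, adjusted p = 0.572). A gap without overlap between strands of a hairpin was thus common in these arrays.

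**Figure D4:**
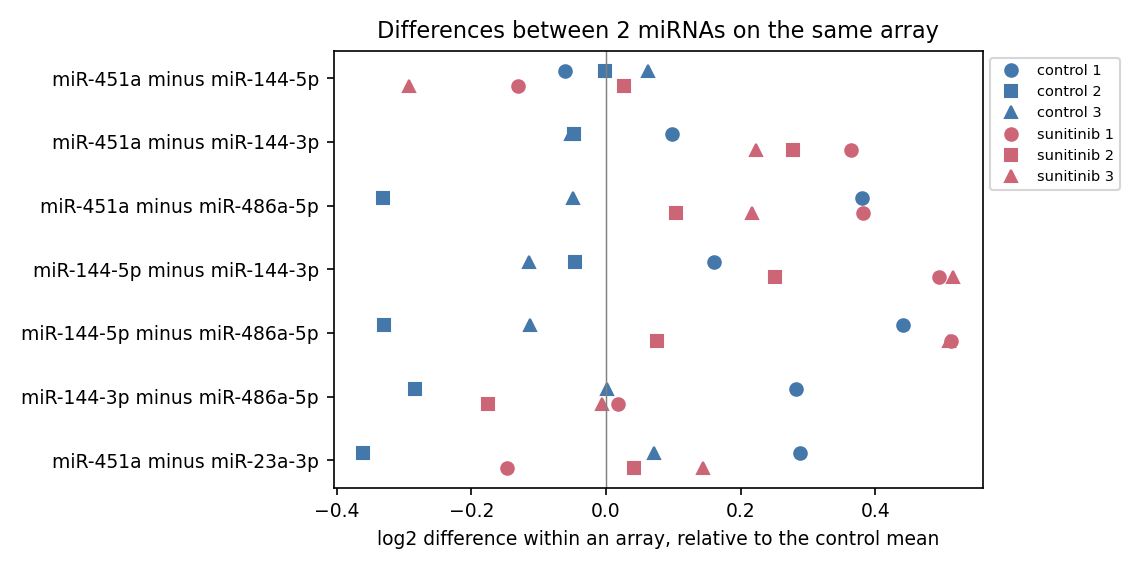
Log2 difference of 2 miRNAs on the same array, relative to the control mean of that difference (x axis), for the 6 pairs and for miR-451a minus miR-23a-3p (y axis); colours mark the group and symbols the replicate. The sunitinib arrays lie to the right of all controls for miR-451a minus miR-144-3p and for miR-144-5p minus miR-144-3p, and overlap them in the other rows.

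The difference between miR-451a, rich in red cells, and miR-23a-3p, low in them, is used in plasma as a gauge of broken red cells. Relative to the control mean it was 0.29, -0.36 and 0.07 in control replicates 1 to 3. In sunitinib replicates 1 to 3 it was -0.15, 0.04 and 0.14. The sunitinib values fell inside the control range, and the gap was 0.01 (exact two-sided permutation p = 1). The change of miR-23a-3p itself was 0.17 (SE 0.08; limma, adjusted p = 0.294), close to the 0.19 of miR-451a. Whether this pair gauges broken red cells in heart tissue was not tested.

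Other miRNAs rich in red cells were listed too: 14 of 16 listed names are on the array and 10 were tested, of which 0 passed the threshold by limma and 2 had an unadjusted p under 0.05, a share near the 19% of all tested miRNAs. Their median change was 0.10, and 7 of the 10 changes were above 0, beside 125 of 237 overall. The lowest unadjusted p belonged to miR-92a-3p of the miR-17 cluster (0.30, SE 0.08; limma, adjusted p = 0.116) and miR-25-3p (0.17, SE 0.07; limma, adjusted p = 0.248). They were followed by miR-185-5p (0.14) and miR-486b-3p (0.13). On the summed scaled signal of the 14, in which bright probes weigh most, the controls ran from 4734 to 4859 and the sunitinib arrays from 4707 to 5079. Of this list, miR-363-3p, miR-182-5p, miR-183-5p and miR-96-5p were well above background on 0 of 6 arrays.

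Of 12 miRNAs linked to erythroid differentiation, 10 were tested, with 1 higher, 1 lower and a median change of 0.07. Over all tested miRNAs, 3.38% passed the threshold. The hypoxia-responsive miR-210-3p rose from 6.21 ± 0.074 to 6.58 ± 0.017 (SD, n = 3 each; change 0.37, limma adjusted p = 0.0375). That call was lost in 18 of 27 alternatives, among them each that left out 1 array (adjusted p from 0.0576 to 0.142), quantile normalization (adjusted p = 0.0751) and slide row as a term (adjusted p = 0.255). The change of miR-210-3p was above 0 in all 27, and ran from 0.330 to 0.399 with 1 array left out. The myeloid miR-223-3p fell from 8.32 ± 0.13 to 6.996 ± 0.078 (SD, n = 3 each; change -1.32, limma adjusted p = 0.000865). It is on the list of leukocyte miRNAs too. The next were miR-155-5p (0.15, adjusted p = 0.248 by limma) and miR-23a-3p (0.17, adjusted p = 0.294 by limma).

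The tissue label was matched by its markers, since 6 of 6 cardiomyocyte miRNAs were well above background on all arrays, with 0 past the threshold by limma, 0 of 6 at an unadjusted p under 0.05 (19% of all tested), and a median change of 0.06. Their summed scaled signal, in which bright probes weigh most, ran from 122800 to 135700 in control and from 131000 to 138800 in sunitinib. Among them miR-208b-3p, encoded in a myosin heavy chain gene, had a control mean of 5.03 ± 0.62 and a sunitinib mean of 6.28 ± 0.95 (SD, n = 3 each), with an adjusted p of 0.265 by limma. Both endothelial (median change -0.10) and both smooth muscle miRNAs (median change -0.15) were tested, with 0 past the threshold by limma and, at an unadjusted p under 0.05 (19% of all tested), only miR-145a-5p (-0.23, adjusted p = 0.209), and the liver's miR-122-5p was well above background on 0 of 6 arrays.

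Leukocyte miRNAs can enter heart tissue with the same blood. Of 8 listed, 7 were tested and 3 were called lower, miR-511-3p among them through control alone. Over all 237 tested miRNAs, 4 were called lower (1.69%). The fall of miR-223-3p passed in all 27 alternatives run (limma, adjusted p from 5.26e-08 to 0.0196). That of miR-142a-3p (-0.64, limma adjusted p = 0.0198) was not past the threshold in 10 of 27, among them without control replicate 1 (adjusted p = 0.0983), 2 (adjusted p = 0.0868) or 3 (adjusted p = 0.0845) and with slide row as a term (adjusted p = 0.249). The change of miR-142a-3p ran from -0.698 to -0.570 with 1 array left out. The macrophage miRNA miR-511-3p met the background criterion on 3 of 3 control and 0 of 3 sunitinib arrays, and entered the test through control alone. With the processing as reported, it was at least 2.16-fold lower in sunitinib, counting the dim arrays at the lowest signal well above background. That bound does not extend to other processing, since the change was -0.3105 with normexp and -0.3113 on summed signal. The limma call (adjusted p = 0.00242) belongs to the measured change of -1.97, not to that bound. It does not stand apart from the filter, which the miRNA passed through the group where it is high. This call was lost in 3 of 26 alternatives, namely normexp (limma, adjusted p = 0.145), summed signal (limma, adjusted p = 0.985) and slide row as a term (limma, adjusted p = 0.0781). With slide row as a term the change itself was -2.02, beside -1.97 as reported. The inflammation-responsive miR-146a-5p had a change of -1.02 that did not pass (limma, adjusted p = 0.0931), and miR-142a-5p was well above background on 0 of 6 arrays. Changes above or near 0 belonged to miR-150-5p (0.35, adjusted p = 0.357 by limma), miR-155-5p (0.15, adjusted p = 0.248 by limma) and miR-342-3p (-0.01, adjusted p = 0.972 by limma). The median change of the 6 that were well above background on all arrays was -0.32. The list's summed scaled signal ran from 970.4 to 1182 in control and from 699.9 to 766.1 in sunitinib. These sums did not overlap, as single signals did not for 27.4% of all tested miRNAs. The sum over the 4 erythroid miRNAs ran from 3454 to 4995 in control and from 4520 to 4776 in sunitinib, with overlap. Bright probes weigh most in a sum. Of the erythroid sum, miR-451a alone gave 4313 of 4995 in control replicate 1 and 2762 of 3454 in control replicate 2. The lowest erythroid sum, which follows miR-451a, and the highest leukocyte sum were both on control replicate 2. The part of blood or leukocyte content in the values of the 4 erythroid miRNAs was not tested.

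Over 27 other ways of processing or subsetting the arrays, none of the 4 miRNAs passed the threshold (limma, adjusted p from 0.233 to 0.999). The change of miR-451a ran from 0.02 without control replicate 2 to 0.34 without control replicate 1, and stayed above 0. The change of miR-144-5p was above 0 in 26 of the 27, and those of miR-144-3p and miR-486a-5p were below 0 in 26 of the 27 each.

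**Figure D5:**
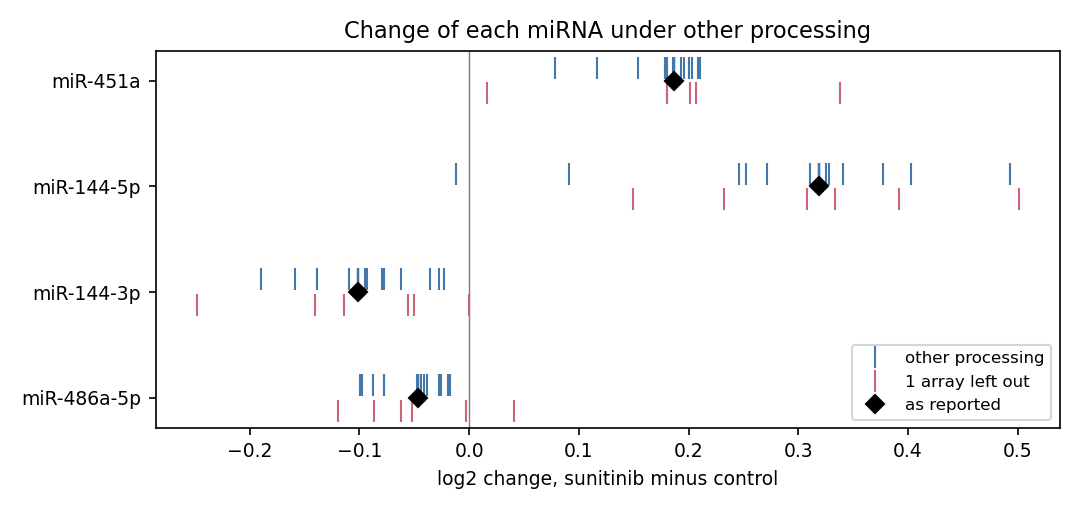
Log2 change, sunitinib minus control (x axis), of each miRNA (y axis) as reported (diamond), under other processing (blue ticks) and with 1 array left out (red ticks). The change of miR-451a spans 0.02 to 0.34 through the choice of control array, and miR-144-5p drops below 0 in 1 setting.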

How the data were processed

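Per the labels, left ventricle RNA was hybridised in 1 colour. The deposited scanner files hold spot intensity from Agilent Feature Extraction 10.7, per the submitters' processing notes, background-subtracted per the file headers. A spot was well above background at 13 times the background SD, per the file headers. The authors' value table is log2, with steps not given in the sources used here.

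Control and flagged spots were dropped. Each array was scaled at the 75th percentile of log2 signal over 393 probes well above background on all 6 arrays, floored at 1 and put on the log2 scale. Spots were averaged per probe, and a probe counted as well above background with at least 50% of its spots. The brighter probe stood for its miRNA. limma 3.58.1 in R 4.3.3 (lmFit, eBayes) compared 3 with 3 arrays, with Benjamini-Hochberg adjustment over 237 miRNAs. The fit was tested on simulated data. Pair differences had exact permutation tests. The number of arrays limits the precision.

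The miRNAs and lists were chosen with earlier results of these data known. Named were the 4 miRNAs, for each the 3 most alike, and from each list those past the threshold and up to 4 by unadjusted p. The 3 strand pairs beside miR-144 and the list members not well above background were named after their values were seen. Samples were treated as unpaired. Correlations of same-numbered deviations were 0.18, 0.22 and -0.06, beside -0.31 to 0.25 for different numbers. With 3 arrays per group these cannot show whether replicate numbers pair the samples.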

Additional observations from a re-analysis of the deposited data

How the results depend on the processing

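None of the 4 miRNAs passed the threshold in 27 alternatives. Where no array was left out they kept their direction, except that miR-144-5p was at -0.012 on the software's summed signal, which includes miR-144-3p. Leaving out 1 array gave 0.0166 to 0.338 for miR-451a, 0.149 to 0.501 for miR-144-5p, -0.248 to 0.0002 for miR-144-3p and -0.120 to 0.0404 for miR-486a-5p. The sign turned without control replicate 1 for miR-144-3p and without sunitinib replicate 1 for miR-486a-5p. The replicate block is balanced over the groups, so it could not move the changes of the 4 miRNAs (limma, adjusted p from 0.384 to 0.821). With it, 0 miRNAs were higher and 2 lower.

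The number of miRNAs higher, 4 as reported, was 2 with normexp, 8 with all probes in the percentile, 0 with quantile normalization, 1 without scaling, 1 on summed signal, 0 without a filter, 0 with slide row as a term, 1 within row 2 and 0 to 5 with 1 array left out. The number lower, also 4, was 2 with normexp, 1 on summed signal, 7 with array weights, 1 with slide row as a term, and 2 to 3 with 1 array left out. It was 7 with the mean of every probe and 7 with the sum of own probe signals, both chosen after seeing the data. The causes were not tested.

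The gap between miR-451a and miR-144-5p turned to 0.0901 with normexp and 0.215 on summed signal, where the sum named miR-144-5p includes miR-144-3p. The gap between miR-144-3p and miR-486a-5p turned to 0.0164 with normexp, 0.0524 with quantile normalization and 0.0217 in the deposited table, with -0.196 to 0.0867 over left-out arrays. The gap between miR-451a and miR-23a-3p turned to -0.0245 with quantile normalization, with -0.167 to 0.158 over left-out arrays. With all 6 arrays, groups did not overlap for the strands of miR-144 in 15 of 16 alternatives, the exception being flagged spots kept (exact permutation p = 0.200). For miR-451a minus miR-144-3p they did not overlap in 14 of 16, the exceptions being normexp and quantile normalization (exact permutation p = 0.300 each). Alternatives that changed only the scaling factor, the floor or the filter could not move these gaps, which stayed at 0.42 and 0.29. Both tallies therefore count settings that could not differ. Scaling moved the median change of all miRNAs by at most 0.0215.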

Other observations

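The scanner software also gives a summed signal per miRNA. For miR-144-5p that sum equalled, within 0.0001, the signal of its longer probe plus the whole summed signal of miR-144-3p on all 6 arrays. In control replicates 1 to 3, 78.5%, 80.7% and 81.3% of the sum named miR-144-5p came from miR-144-3p. In sunitinib replicates 1 to 3 the shares were 74.0%, 76.9% and 73.9%. On that sum the change of miR-144-5p was -0.012, against 0.32 on its own probe. Of 267 miRNAs that the software called detected on all 6 arrays, 51 (19.1%) had a sum over 1.1 times that of their own probes on every array.

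The shorter probe of miR-144-5p, below the criterion on all arrays, read 2.12, 1.89 and 1.89 (log2) on control arrays 1 to 3, and 2.47, 2.03 and 2.07 on sunitinib arrays 1 to 3. Its highest control and its highest sunitinib value were both in replicate 1.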
